A study of Mus musculus with 2 samples.

Results

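The enzymes described here are the glycosyltransferases of the Golgi that start, branch, extend and cap the sugar chains of glycoproteins and glycolipids. They were read in EpCAM-positive epithelial cells sorted from mammary tumours of mice that carry the polyoma middle T (PyMT) oncogene. One library came from tumours with a conditional knockout of the transcription factor Zeb1 (PyMT;Zeb1cKO, labelled ZEB1_KO), and the other from PyMT tumours without it (labelled PYMT). The study asked how Zeb1 in tumour cells steers macrophages towards an M2-like state. There was 1 library per group, so no test between genotypes could be made, and genotype cannot be told apart from the animal, the tumour or the handling of each library. The sources used here do not name the Cre driver of the deletion, the age and strain of the mice or any pooling of tumours. The members were the genes whose symbols begin with St3gal, St6gal, St8sia, Fut and a digit, B3gnt, B3galt, B4galt, Galnt, Mgat or Gcnt. This rule found 74 genes in 11 linkage classes among 16902 genes listed in either table, of which 67 were listed in both libraries, 2 in the knockout library alone and 5 in the PyMT library alone. A further 10 protein-coding genes of the RefSeq mouse annotation carry such symbols and were listed in neither library, among them St6gal2, Gcnt3, Galnt13, Galnt17 and B3galt1.

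Sugar chains on proteins are built in an order. Polypeptide GalNAc transferases (Galnt) begin mucin-type O-glycans, Gcnt enzymes branch their cores, and Mgat enzymes set the number of antennae on N-glycans. The B3gnt and B4galt enzymes then add alternating GlcNAc and galactose to make lactosamine chains, and fucosyltransferases (Fut) and sialyltransferases (St3gal, St6gal, St6galnac, St8sia) close the ends. The finished caps are read by selectins, galectins and siglecs, and mammary tumours are known for shortened and sialylated O-glycans.

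The libraries held 21277484 estimated counts in the knockout library and 21580274 in the PyMT library. Zeb1 itself had 38 counts in the knockout library against 96 in the PyMT library, a ratio of counts per library total of 0.401 (95% counting interval 0.268 to 0.59), counted over the whole gene and not over the deleted part. Markers of other cells were present. The summed level of 6 fibroblast markers was 632 FPKM (fragments scaled to gene length and library size) in the knockout library and 504 in the PyMT library, that of 6 macrophage markers 283 and 343, that of 4 pan-leukocyte markers 43.8 and 49.8, and that of 6 endothelial markers 39.8 and 59.5. By gene, 3 macrophage markers were higher and 3 lower in the knockout library. Of the fibroblast markers 5 were higher and 1 lower, of the pan-leukocyte markers 1 and 3, and of the endothelial markers 1 and 5. Neutrophil markers summed to 16.2 FPKM in the knockout library against 280 in the PyMT library, with Camp, Ngp and Ly6g not listed in the knockout library. Skeletal muscle markers summed to 0.67 against 171. The 6 T and B cell markers summed to 1.15 and 1.08. All 8 epithelial markers, Epcam included, had lower levels in the knockout library. They summed to 2765 FPKM there against 5593 in the PyMT library, and in each library exceeded every other marker list. Epcam itself had 480 and 741. The part of these cells in the differences described here was not tested, and fewer cells of a type cannot be told apart from less RNA per cell.

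The glycosyltransferases as a family took a slightly smaller share of counts in the knockout library, and a minority of them lay past 2-fold, a share near that of all genes. Together they took 0.175% of the counts in the knockout library (exact 95% interval 0.173% to 0.176%) and 0.199% in the PyMT library (0.197% to 0.201%). The ratio of these shares was 0.877 (0.865 to 0.89), where intervals of this kind cover counting error only. Of the 74 genes, 48 reached 1 FPKM in at least 1 library and were compared on the log2(FPKM + 1) scale. On this scale, 3 were at least 2-fold higher in the knockout library and 6 at least 2-fold lower, while 39 lay within 2-fold. Among all 12653 genes compared in the same way, 10.2% were 2-fold higher and 8.78% lower, against 6.25% and 12.5% of the 48. The median log2 ratio was -0.15 for the glycosyltransferases and 0.13 for all genes. Of the 48, 22 had a positive and 26 a negative ratio. Scaling by the median ratio moved the median of all genes to 0.01 and that of the glycosyltransferases to -0.27, and with it 42.3% of all genes past 2-fold were higher, where the share with the authors' scaling was 53.7%. B3gnt7, at -1.03, was the gene just past 2-fold, and Fut10, at 0.98, the gene just short of it.

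**Figure D1:**
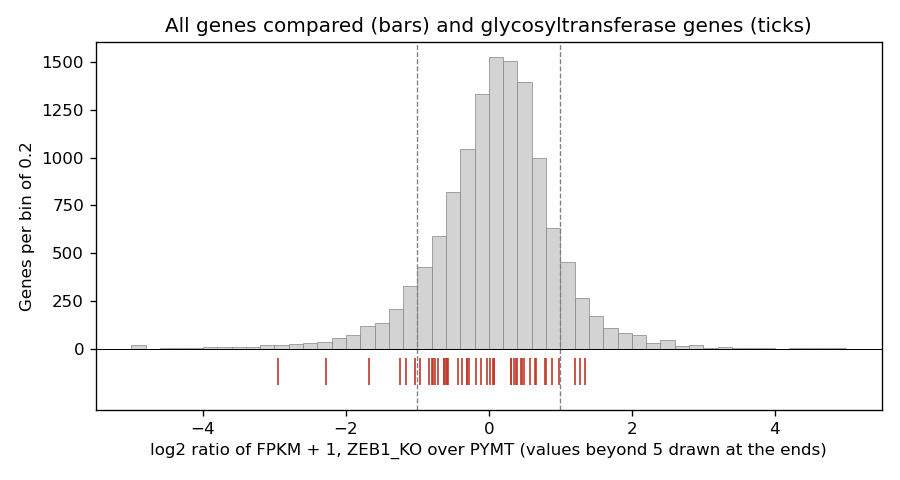
Log2 ratio of FPKM + 1, knockout over PyMT, for the 12653 genes with at least 1 FPKM in at least 1 library (bars, genes per bin) and for the 48 glycosyltransferase genes among them (ticks). Dashed lines mark 2-fold; 3 ticks lie above the upper line and 6 below the lower one.

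The most abundant members were largely shared. The 10 highest members held 61.1% of the summed FPKM of the family in the knockout library and 61.3% in the PyMT library, and 7 genes stood in both lists of 10. St3gal5, the enzyme that makes the ganglioside GM3, ranked 1 in the knockout library and 9 in the PyMT library. Galnt2, which starts O-glycans on many proteins, ranked 5 in the knockout library and 1 in the PyMT library. Mgat4b ranked 13 and 3, and St6galnac2 ranked 18 and 5, in the knockout and PyMT libraries in that order.

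**Figure D2:**
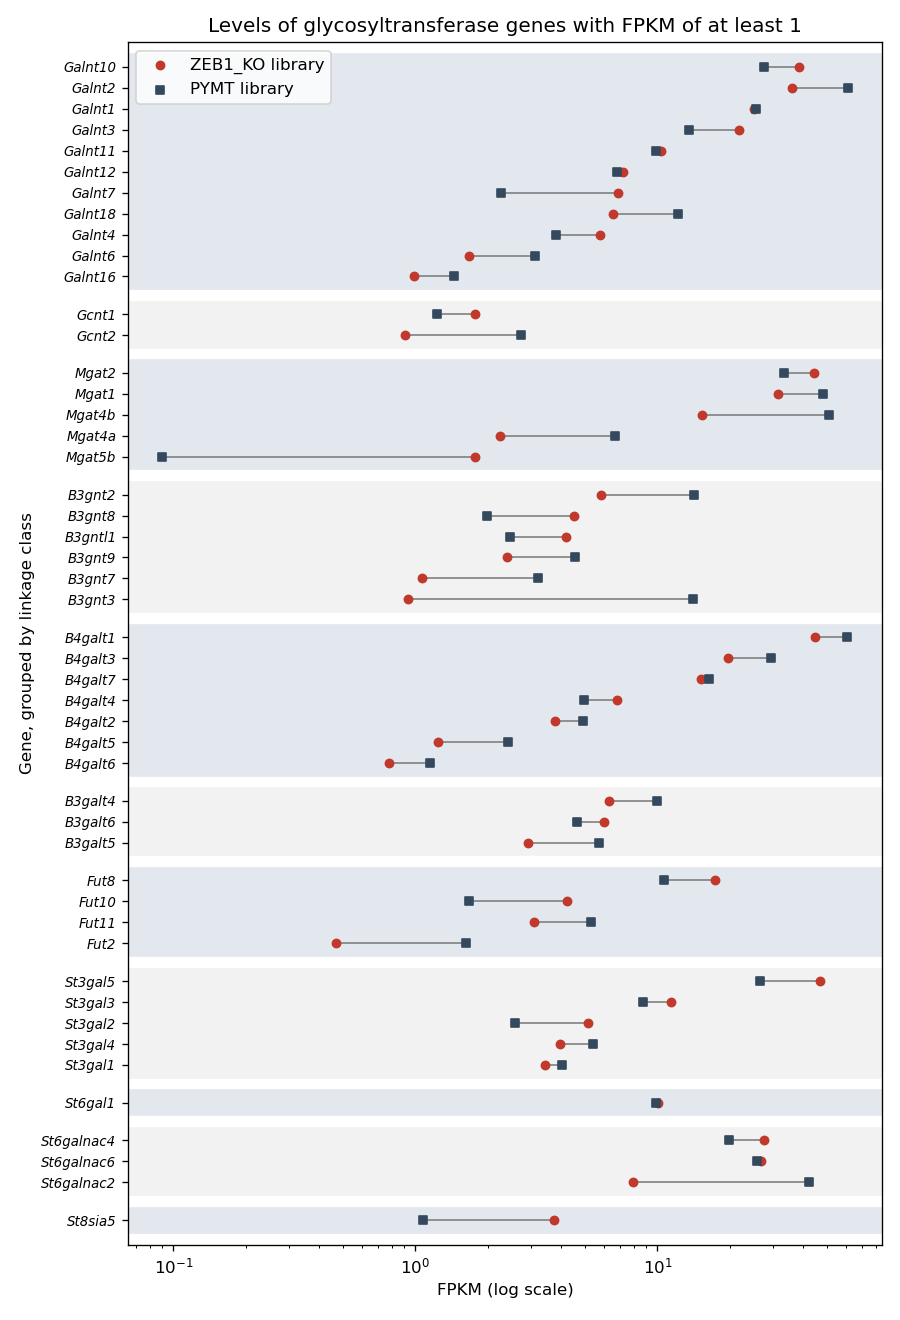
FPKM on a log axis of the 48 glycosyltransferase genes with at least 1 FPKM in at least 1 library, grouped by linkage class from initiation (top) to capping (bottom). Circles are the knockout library and squares the PyMT library, joined by a line per gene; the longest lines belong to Mgat5b, B3gnt3 and St6galnac2.

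The genes that start O-glycans had a similar total level in both libraries, with Galnt7 past 2-fold. The 16 Galnt genes listed summed to 161 FPKM in the knockout library and 168 in the PyMT library, and the ratio of their summed counts was 0.978 (0.955 to 1.00). Of the 11 that reached 1 FPKM, 1 was 2-fold higher, none was 2-fold lower and 10 lay within 2-fold, beside 10.2% higher and 8.78% lower among all genes. Galnt7 (Entrez gene 108150, chromosome 8, 57523825 to 57653055, GRCm38), which prefers peptides that already carry a GalNAc, had 6.90 FPKM in the knockout library and 2.26 in the PyMT library. Its counts were 615 against 204, a ratio of 3.06 (2.61 to 3.60). Galnt10, another enzyme that works on such glycopeptides, was the most abundant of the class in the knockout library at 38.3 FPKM, against 27.7 in the PyMT library. Galnt2 was the most abundant in the PyMT library, and had 35.9 FPKM in the knockout library against 61.1 in the PyMT library, a count ratio of 0.590 (0.564 to 0.618). It took 22.3% of the FPKM of the class in the knockout library and 36.4% in the PyMT library. Galnt18 had the lowest log2 ratio of the class, -0.80, at 6.57 and 12.2 FPKM, with a count in the PyMT library that was not whole. Galnt1, the other broadly expressed initiator, was level, with 1994 counts in the knockout library and 2054 in the PyMT library. Among members below 1 FPKM, Galnt9 had 30 counts in the knockout library and 7 in the PyMT library, Galnt15 had 5 and 22, Galnt5 had 2 and 2, and Galnt14 and Galntl6 had 1 count each in the PyMT library and were not listed in the knockout library. Galnt3, whose product protects the hormone FGF23 from cleavage, had 21.8 FPKM in the knockout library and 13.5 in the PyMT library. The rest of the class, Galnt4, Galnt6, Galnt11, Galnt12 and Galnt16, lay between 0.99 and 10.4 FPKM in the knockout library and between 1.45 and 9.85 in the PyMT library.

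The enzymes that set the O-glycan core were low in both libraries. C1galt1, which makes the core 1 disaccharide and is named here after its values were seen, had 1.28 FPKM in the knockout library and 2.03 in the PyMT library. Gcnt1, which turns core 1 into the branched core 2, had 1.77 FPKM and 167 counts in the knockout library against 1.23 FPKM and 117 counts in the PyMT library, a count ratio of 1.45 (1.14 to 1.85). Gcnt3, the mucin-type core 2 and core 4 enzyme, was listed in neither library. The core 3 enzyme B3gnt6 had 6 counts and 1 count, and St6galnac1, which makes the sialyl-Tn antigen, had 1 count in the PyMT library and was not listed in the knockout library. Gcnt2, the I-branching enzyme of lactosamine chains, was the leading member of this class in the PyMT library. It had 0.91 FPKM and 77 counts in the knockout library, against 2.74 FPKM and 230 counts in the PyMT library, a count ratio of 0.340 (0.259 to 0.441). Its log2 ratio of -0.97, with the pseudocount of 1, lay just short of 2-fold. Gcnt4 had 34 and 44 counts, and Gcnt7, which overlaps the gene Rtf2, 21 and 75.

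Among the N-glycan branching enzymes, those that begin the antennae lay within 2-fold while both enzymes of the beta-1,4 branch were lower in the knockout library. Of the 5 Mgat genes that reached 1 FPKM, 1 was 2-fold higher, 2 were 2-fold lower and 2 lay within 2-fold. Of all genes, 10.2% were higher and 8.78% lower. Mgat1, the gate to complex N-glycans, had 31.6 FPKM in the knockout library and 48.1 in the PyMT library, and Mgat2, which adds the next antenna, 44.2 and 33.3. Their sum was 75.8 and 81.4 FPKM. Mgat4b (Entrez gene 103534, chromosome 11, 50225335 to 50235103) had 15.3 FPKM and 736 counts in the knockout library, against 51.3 FPKM and 2480 counts in the PyMT library. The count ratio was 0.301 (0.277 to 0.327). Its share of the FPKM of the class was 16.0% in the knockout library and 36.6% in the PyMT library. Mgat4a (Entrez gene 269181, chromosome 1, 37439340 to 37541060), the second enzyme of the same branch, had 2.23 FPKM against 6.66, a count ratio of 0.339 (0.298 to 0.385). The summed FPKM of Mgat4a and Mgat4b was 17.6 in the knockout library and 58.0 in the PyMT library. The enzymes of the beta-1,6 branch and of the bisecting GlcNAc were scarce, with 19 and 29 counts for Mgat5 and 21 and 39 counts for Mgat3. Mgat5b (Entrez gene 268510, chromosome 11, 116918853 to 116986944), a paralogue of Mgat5 that is best known from brain, where it branches O-mannose glycans, was 2-fold higher. It had 1.77 FPKM and 101 counts in the knockout library against 0.09 FPKM and 6 counts in the PyMT library, a count ratio of 17.1 with a wide interval (7.58 to 47.6).

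The B3gnt class, which holds enzymes of lactosamine chain extension and of other steps, had the lowest summed count ratio of the linkage classes. The 9 B3gnt genes summed to 19.5 FPKM in the knockout library and 40.7 in the PyMT library, a ratio of summed counts of 0.481 (0.445 to 0.521). Of the 6 that reached 1 FPKM, 3 were 2-fold lower and 3 within 2-fold, where 8.78% of all genes were 2-fold lower. The 3 lower genes are set out here with the 250 bases of RefSeq sequence (GRCm38.p6) that precede a start of transcription, on the strand of the gene. For B3gnt3 and B3gnt2 that start lies inside the span of the gene and not at its outer end. Capitals mark matches on either strand to CACCTG, the E-box that Zeb1 is known to bind, or to ACGTG or GCGTG, the core of the hypoxia response element.
B3gnt3, chr8:71701801-71702050, minus strand: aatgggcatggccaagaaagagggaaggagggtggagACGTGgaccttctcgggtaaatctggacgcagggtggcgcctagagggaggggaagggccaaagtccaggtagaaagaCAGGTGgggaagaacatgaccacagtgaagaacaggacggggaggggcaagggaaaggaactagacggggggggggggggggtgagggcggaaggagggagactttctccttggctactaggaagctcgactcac
B3gnt2, chr11:22859736-22859985, minus strand: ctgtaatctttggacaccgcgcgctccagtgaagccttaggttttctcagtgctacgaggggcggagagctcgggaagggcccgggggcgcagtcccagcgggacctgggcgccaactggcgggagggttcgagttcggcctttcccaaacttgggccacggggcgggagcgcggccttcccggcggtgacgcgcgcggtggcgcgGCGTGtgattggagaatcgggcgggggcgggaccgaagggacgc
B3gnt7, chr1:86302971-86303220, plus strand: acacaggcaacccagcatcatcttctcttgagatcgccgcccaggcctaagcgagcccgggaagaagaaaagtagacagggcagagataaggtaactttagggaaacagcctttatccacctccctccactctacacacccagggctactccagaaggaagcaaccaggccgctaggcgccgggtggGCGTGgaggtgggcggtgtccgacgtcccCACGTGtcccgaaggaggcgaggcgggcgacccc
The B3gnt3 window held a CACCTG match that begins 135 bases before the start (read as CAGGTG on the strand shown) and an ACGTG match 213 bases before it. The B3gnt2 window held a GCGTG match 44 bases before the start. The B3gnt7 window held GCGTG 63 bases before the start and, 34 bases before it, CACGTG, in which ACGTG overlaps its own complement and was counted on both strands. Over all 32851 promoter windows of this length, 17.2% held CACCTG and 38.6% held ACGTG or GCGTG. Of the 76 windows of the 54 members with an entry, 17.1% and 56.6% did. Among the 9 genes past 2-fold, Mgat4a, Mgat5b and Galnt7 also had an entry, and of these only Galnt7 held a match, to GCGTG on the opposite strand, 224 bases before its start. A match describes the letters of the sequence and is not evidence of binding.

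B3gnt3 had the lowest ratio of all 48 members. This enzyme (Entrez gene 72297, chromosome 8, 71691373 to 71702626) extends core 1 O-glycans and takes part in making the sulphated ligands of L-selectin. It had 0.93 FPKM and 38 counts in the knockout library against 14.0 FPKM and 577 counts in the PyMT library, a count ratio of 0.0668 (0.0468 to 0.0928). It made up 4.78% of the FPKM of the class in the knockout library and 34.3% in the PyMT library. B3gnt2 (Entrez gene 53625, chromosome 11, 22834739 to 22860336), the main enzyme of poly-lactosamine chains, had 5.84 FPKM in the knockout library and 14.2 in the PyMT library. Its count ratio was 0.414 (0.362 to 0.472), and it had the highest FPKM of the class in both libraries. B3gnt7 (Entrez gene 227327, chromosome 1, 86303221 to 86307305), which extends keratan sulphate, had 1.06 and 3.22 FPKM, with 55 against 168 counts. B3gnt8, which is known to raise the activity of B3gnt2 in a complex, lay on the other side, at 4.50 FPKM and 142 counts in the knockout library and 1.98 FPKM and 66 counts in the PyMT library. Its count ratio was 2.18 (1.62 to 2.97), with a log2 ratio of 0.88 on the FPKM scale. B3gnt5, which starts lacto-series glycolipids, had 1 count in the knockout library and was not listed in the PyMT library. B3gnt9 had 2.40 and 4.58 FPKM and B3gntl1 had 4.18 and 2.46, both with counts that were not whole, and B3gnt4 lay below 0.5 FPKM in both libraries.

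**Figure D3:**
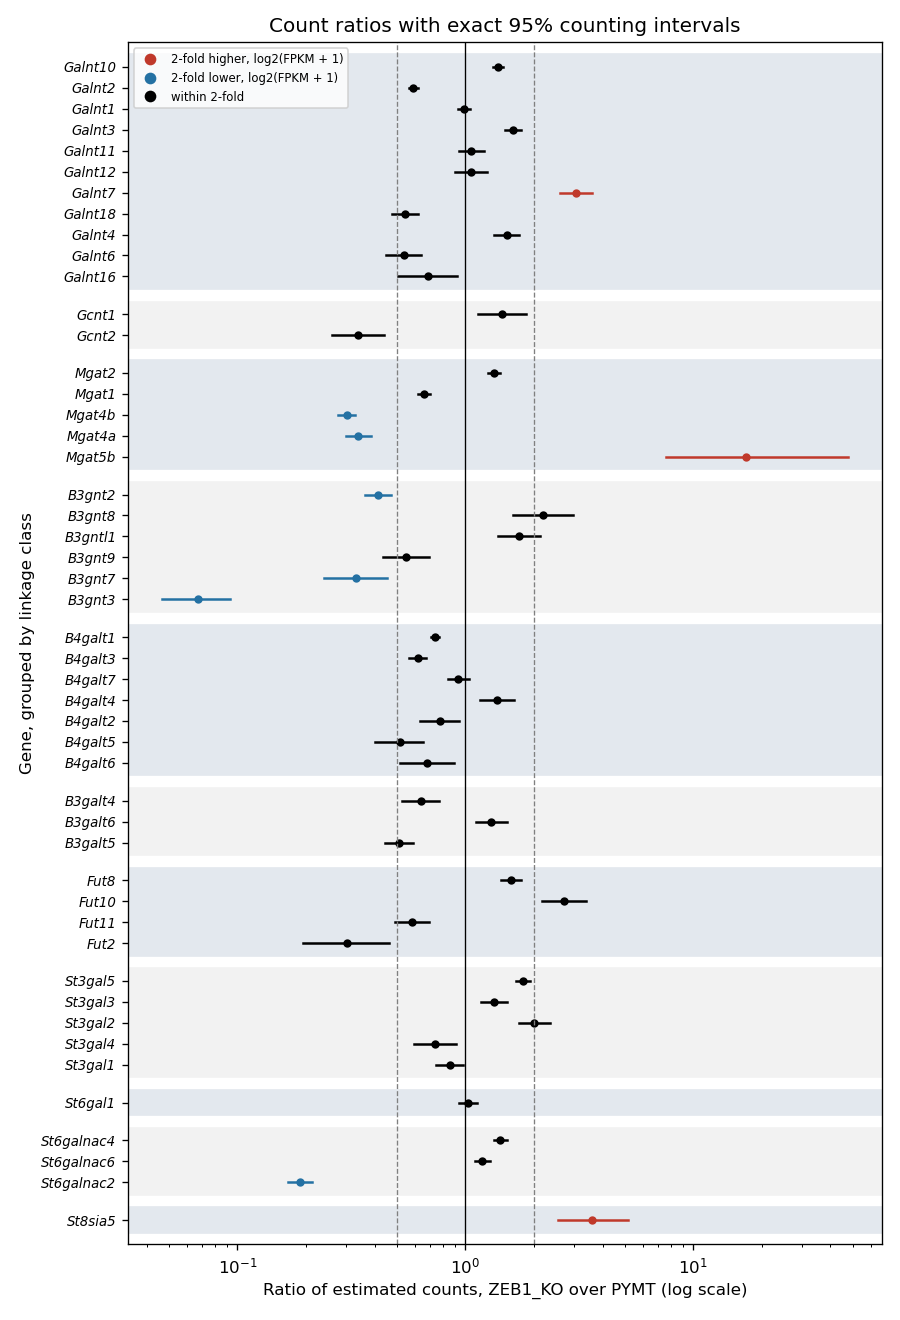
Ratio of estimated counts per library total, knockout over PyMT, on a log axis for the 48 genes with at least 1 FPKM in at least 1 library, with exact 95% intervals that cover counting error only. Colours mark the 3 genes that were 2-fold higher and the 6 that were 2-fold lower on the log2(FPKM + 1) scale, and dashed lines mark count ratios of 0.5 and 2; the intervals of B3gnt3 and Mgat5b lie farthest from 1.

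None of the B4galt and B3galt genes passed 2-fold on the log2(FPKM + 1) scale. Of all genes, 10.2% were 2-fold higher and 8.78% lower on it. The log2 ratios of both classes lay on both sides of 0. Of the 7 B4galt genes, 6 had a negative log2 ratio, between -0.61 and 0.38 over the class, and the ratio of summed counts was 0.749 (0.725 to 0.774). B4galt1, the enzyme of lactosamine and, with alpha-lactalbumin, of lactose, was the most abundant, at 44.7 FPKM in the knockout library and 60.8 in the PyMT library. B4galt5, which makes lactosylceramide, had the lowest ratio, with 1.24 and 2.41 FPKM. B4galt4 had the highest, with 6.78 and 4.99. B4galt3 had 19.6 and 29.5 FPKM, B4galt7, an enzyme of the proteoglycan linker, 15.1 and 16.4, B4galt2 3.78 and 4.93, and B4galt6, the second lactosylceramide synthase, 0.78 and 1.15. Of the B3galt genes, B3galt5, which makes type 1 chains, had 2.91 FPKM in the knockout library and 5.73 in the PyMT library (count ratio 0.511, 0.443 to 0.589). B3galt6, the next enzyme of the linker, had 6.02 and 4.64, and B3galt4, which makes the ganglioside GM1, 6.31 and 9.97. B3galt2 had 3 counts in the PyMT library and was not listed in the knockout library.

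Fucosylation genes were led by core fucose. Fut8, the only enzyme that adds the core fucose of N-glycans, had 17.3 FPKM in the knockout library and 10.6 in the PyMT library, a count ratio of 1.58 (1.44 to 1.75). It made up 66.0% of the FPKM of the class in the knockout library and 53.3% in the PyMT library. Fut10 had 4.23 and 1.66 FPKM, with 307 against 115 counts and a count ratio of 2.71 (2.18 to 3.38), just short of 2-fold on the log2(FPKM + 1) scale. Fut2, which adds the alpha-1,2 fucose of H antigens, had the lowest log2 ratio of the class, -0.83. It had 0.47 FPKM and 29 counts in the knockout library, against 1.62 FPKM and 97 counts in the PyMT library, a count ratio of 0.303 (0.193 to 0.463). The enzymes of Lewis x and its sialylated form were scarce. Fut4 had 32 and 24 counts and Fut7, the selectin ligand enzyme of leukocytes, 4 and 3, while Fut9 had 20 counts in the knockout library and was not listed in the PyMT library. Fut1 had 25 and 16 counts, and Fut11, with counts that were not whole, 3.09 and 5.30 FPKM.

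The alpha-2,3 sialyltransferases as a group had more counts in the knockout library, most of them from 1 gene. The St3gal genes, which add alpha-2,3 sialic acid, summed to 71.2 FPKM in the knockout library and 48.0 in the PyMT library, and the ratio of their summed counts was 1.46 (1.39 to 1.54). Most of that sum was St3gal5, at 47.0 and 26.6 FPKM (count ratio 1.79, 1.67 to 1.92). St3gal2, which caps the galactose of core 1 and of gangliosides, had 5.17 and 2.59 FPKM, with a count ratio of 2.01 (1.71 to 2.35) and a log2 ratio of 0.78. St3gal1, which caps core 1 O-glycans and is linked to shortened glycans in breast cancer, had 3.44 and 4.05 FPKM. St3gal4, which acts on lactosamine ends, had the lowest log2 ratio of the class, -0.37, at 3.96 and 5.43 FPKM. St3gal3 had 11.3 and 8.68 FPKM, and St3gal6 11 and 17 counts. All 5 St3gal genes that reached 1 FPKM lay within 2-fold on the log2(FPKM + 1) scale. Of all genes, 10.2% were 2-fold higher and 8.78% lower on it. St6gal1, the enzyme of alpha-2,6 sialic acid on N-glycans, was level, with 894 counts in the knockout library and 883 in the PyMT library, a count ratio of 1.03 (0.935 to 1.13).

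St6galnac2 was the sialyltransferase with the lowest ratio. This gene (Entrez gene 20446, chromosome 11, 116676703 to 116695782), whose product adds alpha-2,6 sialic acid to the GalNAc of O-glycans, had 7.89 FPKM and 312 counts in the knockout library. In the PyMT library it had 42.2 FPKM and 1678 counts, a count ratio of 0.189 (0.167 to 0.213). It made up 12.6% of the FPKM of its class in the knockout library and 48.0% in the PyMT library. St6galnac4 and St6galnac6, which lie next to each other on chromosome 2, had 27.6 and 19.7 FPKM and 26.7 and 25.7 FPKM in the knockout and PyMT libraries in that order. Their estimated counts were not whole numbers, which occurs where reads fit more than 1 gene, so their ratios are uncertain. St6galnac3 had 13 and 19 counts and St6galnac5 had 7 and 1.

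The alpha-2,8 sialyltransferases were low, and St8sia5 and St8sia1, which act on gangliosides, had more counts in the knockout library. St8sia5 (Entrez gene 225742, chromosome 18, 77185847 to 77255450), which makes gangliosides with several sialic acids, had 3.75 FPKM and 149 counts in the knockout library against 1.07 FPKM and 42 counts in the PyMT library. Its count ratio was 3.60 (2.54 to 5.20). St8sia1, the GD3 synthase, did not reach 1 FPKM, and had 107 counts in the knockout library and 36 in the PyMT library, a ratio of 3.01 (2.05 to 4.53). St8sia4 and St8sia2, which make polysialic acid, had 24 and 23 counts and 9 and 20 counts. St8sia6 had 3 and 14 counts, and St8sia3 had 1 count in the PyMT library and was not listed in the knockout library. B4galnt1, which stands between these enzymes on the ganglioside pathway and is named here after its values were seen, was abundant in both libraries, at 171 FPKM in the knockout library and 159 in the PyMT library.

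**Figure D4:**
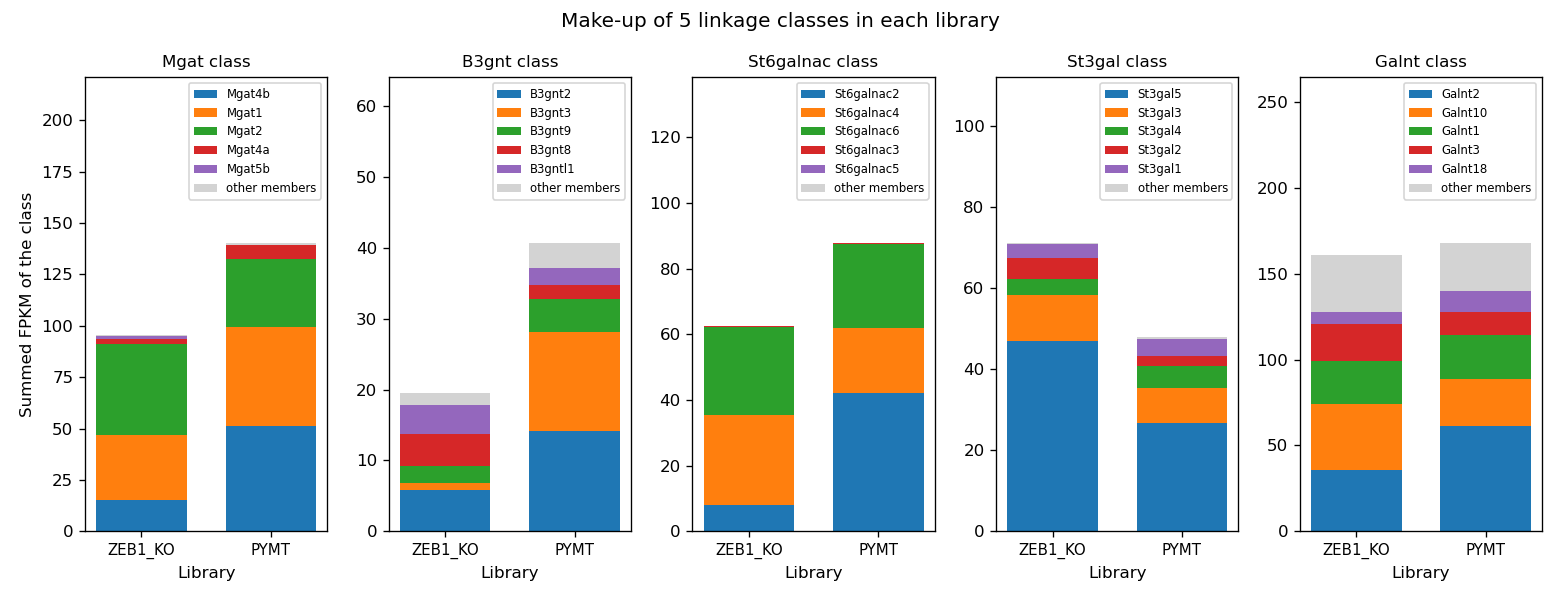
Summed FPKM of 5 linkage classes, knockout library left and PyMT library right in each panel, with the 5 members of highest FPKM in either library in colour and the rest in grey. The St3gal bar is taller in the knockout library (71.2 against 48.0), while Mgat4b, B3gnt3 and St6galnac2 take a smaller part of their bars there.

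Genes below the limit of 1 FPKM were also compared by counts. By the ratio of counts alone, among the 62 members with at least 20 counts over both libraries, 9 had a ratio of at least 2 and 11 a ratio of at most 0.5. This rule was added after the data had been seen. The shares of the 62, 14.5% and 17.7%, stood beside 16.3% and 12.3% of all 14047 genes with that many counts. The 9 higher genes were Mgat5b, Fut9, Galnt9, St8sia5, Galnt7, St8sia1, Fut10, B3gnt8 and St3gal2. Fut9, with 20 counts in the knockout library, was not listed in the PyMT library and counted as higher without a ratio of its own. The 11 lower genes were B3gnt3, St6galnac2, Galnt15, Gcnt7, Mgat4b, Fut2, B3gnt7, Mgat4a, Gcnt2, B3gnt2 and St8sia2.

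Among genes that supply sugar donors, 3 that make activated sialic acid were 2-fold higher in the knockout library and the others reported lay within 2-fold. Of 21 genes of nucleotide sugar synthesis and transport, 3 were 2-fold higher, none was 2-fold lower and 18 lay within 2-fold, beside 10.2% higher and 8.78% lower among all genes, with a median log2 ratio of 0.02 against 0.13 for all genes. Cmas, which activates sialic acid to the form that sialyltransferases use, had the highest ratio of the list. It had 298 FPKM in the knockout library and 80.7 in the PyMT library, a count ratio of 3.72 (3.57 to 3.89). The others past 2-fold, named with the next 2 genes after their values were seen, were Gne (161 and 54.0 FPKM), which commits UDP-GlcNAc to sialic acid, and Nanp (17.2 and 5.76), the phosphatase of the same route. The count of Nanp in the PyMT library was not whole. The synthase Nans (204 and 120 FPKM) and the Golgi transporter of activated sialic acid, Slc35a1 (28.0 and 18.0), lay within 2-fold. These 5 genes, picked after their values were seen, had more counts per total in the knockout library, with ratios between 1.57 and 3.72. Galk1, which phosphorylates galactose, had the lowest ratio of the list on the log2(FPKM + 1) scale, at 89.7 and 145 FPKM. Its count in the knockout library was not whole.

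**Figure D5:**
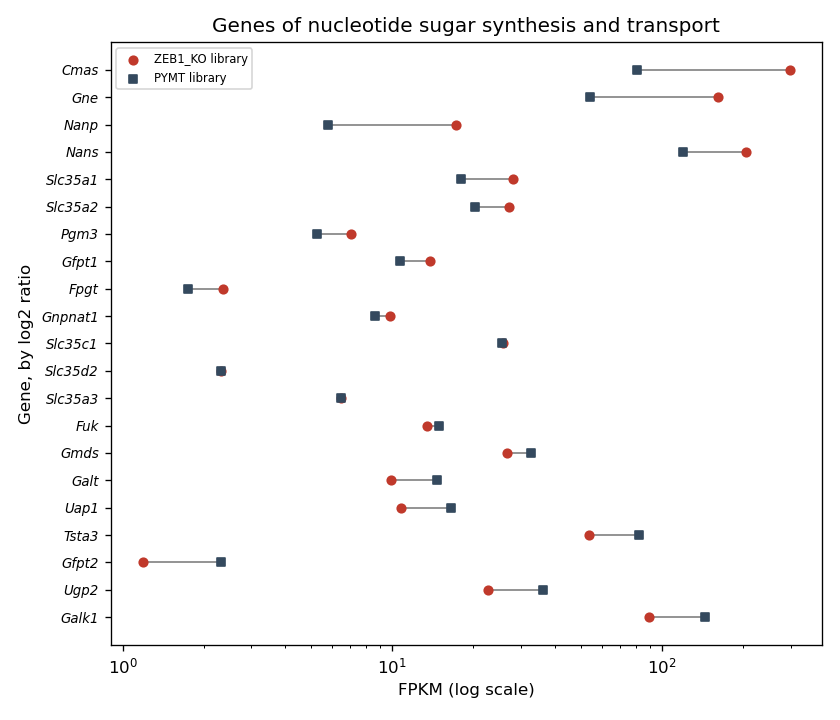
FPKM on a log axis of the 21 genes of nucleotide sugar synthesis and transport, ordered by log2 ratio with the highest at the top. Circles are the knockout library and squares the PyMT library; Cmas, Gne and Nanp are the 3 genes past 2-fold.

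Other enzymes of the same pathways differed in both directions. Of 11 further transferases of O-glycans and glycolipids that reached 1 FPKM, 3 were 2-fold higher, 2 lower and 6 within 2-fold, beside 10.2% higher and 8.78% lower among all genes. B4galnt3, which makes the LacdiNAc end of N- and O-glycans, had 4.14 FPKM in the knockout library and 0.89 in the PyMT library, with 462 against 99 counts. B4galnt2, which makes the Sda antigen, had 0.10 and 1.37 FPKM, with 8 against 115 counts. All 6 Golgi mannosidase genes lay within 2-fold, between Man2a1 (11.7 and 21.3 FPKM) and Man1b1 (37.3 and 25.2). So did the 4 sialidase and fucosidase genes above 1 FPKM, between Neu1 (16.9 and 30.2 FPKM) and Neu2 (2.14 and 1.78). Of 26 genes of Golgi structure and coat, 1 was 2-fold higher and 25 lay within 2-fold, with a median log2 ratio of 0.16. The higher gene was the stacking protein gene Gorasp1, at 33.1 and 11.5 FPKM and with counts that were not whole. Its paralogue Gorasp2 had the lowest ratio on the log2(FPKM + 1) scale, at 109 and 165.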

How the data were processed

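RNA was sequenced from 1 ZEB1_KO and 1 PYMT library. Per the file headers, the authors deposited, for each gene, an expected count (an estimated count), an FPKM value and a gene length. RSEM 1.2.8, Bowtie2 2.2.5, HISAT2 2.1.0, DESeq and the mm10 build appear, with no role, in the submitters' processing notes. The sources used here name no annotation. Genes at 0 are not listed in the deposited tables, and the lowest FPKM is 0.01, so a gene not listed entered as 0. No fold is printed for such a gene. Under the rule of count ratios it still counted as past the limit if it had enough counts in the other library.

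The log2 ratio was log2 of (knockout FPKM + 1) over (PyMT FPKM + 1), for genes with at least 1 FPKM in at least 1 library, which understates differences of low genes. Count ratios used expected counts, rounded, over library totals, with Clopper-Pearson 95% intervals. There was no test and no replicate check. The 2-fold limit sorts genes by size of difference only. The members, classes, lists and the rule for named genes were chosen with earlier results of these data known. The rule names the genes past 2-fold, the most abundant gene of each class, both extremes of each class or list, members listed in 1 library, and Zeb1 and Epcam. Other members are given so that all 74 are accounted for. In the list of nucleotide sugar supply, 1 gene is not reported here and is left out of the counts. Steps were tested on simulated counts that held counting error only and no variation between animals, tumours or handling. The sources used here do not say if counting used strand, and 8 members, none of them past 2-fold on the log2 scale, overlap another listed protein-coding gene. Of the 74 members, 7 had counts that were not whole (tolerance 1e-09). Coordinates and promoters are from RefSeq (GRCm38.p6, the assembly of mm10), and all 74 members matched by Entrez number. TMM factors came from edgeR 4.0.16 in R 4.3.3. All else ran in Python 3.11.15 (pandas 2.3.3, scipy 1.17.1, numpy 2.4.6, matplotlib 3.10.9).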

Additional observations from a re-analysis of the deposited data

How the results depend on the processing

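With no replicates, no library could be left out. No paired analysis was possible because each group has 1 library. The 9 genes past 2-fold kept their direction and stayed past 2-fold with median-ratio scaling, TPM and CPM with TMM factors. They also did with a pseudocount of 0.1, which can only enlarge a log2 ratio and so could not remove a gene. The other scalings moved the median of all genes down, from 0.13 to 0.01 (median ratio), 0.09 (TPM) and 0.01 (TMM). Such a shift can remove higher genes more readily than lower ones. The number of members past the limit moved with the setting, and so did that of all genes. Of the 48 members, 9 were higher and 17 lower at 1.5-fold, and 0 higher and 3 lower at 3-fold. Of all 12653 genes, 3002 were higher and 2183 lower at 1.5-fold, and 414 and 447 at 3-fold. With a pseudocount of 0.1, 5 members were higher and 8 lower (1860 and 1474 of all genes). With TPM 4 and 8 members were past 2-fold (1317 and 1305 of all genes), and with TMM factors 4 and 9 (1251 and 1487). With median-ratio scaling 3 and 7 members were (967 and 1319 of all genes). Gcnt2 was added to the lower genes by each of these settings. Fut2 and Fut10 were added, as lower and higher, by each but median-ratio scaling. B3gnt8 was added with the pseudocount of 0.1 (log2 ratio 1.15) and B3galt5 with TMM factors (-1.06). With at least 5 FPKM, 1 and 5 of 32 members were, beside 1013 and 852 of 9439 genes. By count ratio, 9 and 11 of 62 members were, with the shares of all genes given above. The median log2 ratio of the family was -0.31 to -0.15 under the scalings and the smaller pseudocount, -0.03 without a filter and -0.00335 with at least 5 FPKM. St6gal1 turned negative, to between -0.11 and -0.03, under each of the other scalings (TPM, median ratio, TMM). The median of the fucosyltransferase class (0.02) turned negative with median-ratio scaling (-0.11), TPM (-0.05), TMM factors (-0.18) and a pseudocount of 0.1 (-0.03). The median of the Galnt class (0.07) turned negative with median-ratio scaling (-0.06), with TMM factors (-0.06) and without a filter (-0.007). Without a filter the B3gnt median was 0.01 and the St8sia median -0.06, since low members then count equally. The St6galnac median (0.06) turned to -0.08 with median-ratio scaling. Without genes of non-whole counts, St6galnac2 alone remained of the members of its class that reached 1 FPKM. Depth limits members with few counts, such as Mgat5b with 6 in the PyMT library.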

Other observations

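St6galnac2 and Mgat5b, which lay past 2-fold in opposite directions, are near each other on chromosome 11, 223070 bases apart. The stretch between them was looked at because both were past 2-fold. Of the 6 listed genes in it, 5 reached 1 FPKM and 1 was past 2-fold. Among all genes, 10.2% were 2-fold higher and 8.78% lower. The gene past 2-fold was Jmjd6, a hydroxylase gene, at 26.8 FPKM in the knockout library and 57.5 in the PyMT library (count ratio 0.471, 0.434 to 0.511). The splicing factor gene Srsf2 had 225 and 141 FPKM, and Mettl23 had 26.8 and 14.7.

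The gene length deposited beside the FPKM differed between libraries for 29 of the 67 members listed in both, and by over 10% for 4 of them, Mgat5b, St6galnac6, St8sia4 and Galnt9, named after their values were seen. St8sia4 had 24 counts and a length of 5437 bases in the knockout library against 23 counts and 3761 bases in the PyMT library, and its FPKM was 0.21 against 0.30 while its count ratio was 1.06 (0.572 to 1.96). For Mgat5b the lengths were 2856 and 3356 bases.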
